A study of Mus musculus with 70 samples.

Results

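The levels of 6 genes that encode secreted or gaseous messengers of neurons were followed through the development of the mouse dorsal cortex. Tac2, Cck, Grp, Sst and Npy encode neuropeptide precursors. Nos1 encodes neuronal nitric oxide synthase. The 6 were taken by symbol from a table of 23078 genes, and all 6 passed the filter on low values, a group mean of 1 TPM (the unit of transcript abundance) or more in some group. They were chosen by their TPM levels over the 23 groups of cell type and stage, which were already known, so their own levels and differences are given as a description, with errors and without p-values. Tests were kept for other genes of their pathways, in lists that were also chosen with earlier results of these data known.

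A neuropeptide is made as a longer precursor, cut and modified in the secretory pathway, stored in dense-core vesicles and released onto G protein-coupled receptors. Tac2 encodes neurokinin B, whose main receptor is Tacr3. Cck encodes cholecystokinin, used by many excitatory neurons and some interneurons of the cortex. Grp encodes gastrin-releasing peptide, a bombesin-like peptide. Sst (somatostatin) and Npy (neuropeptide Y) are best known in the adult cortex as markers of inhibitory interneurons, which are born in the ventral forebrain and migrate into the cortex. Nitric oxide made by Nos1 diffuses through membranes and activates soluble guanylate cyclase, the product of genes such as Gucy1a3 and Gucy1b3.

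All samples came from wild-type C57Bl/6 mice that carried a reporter, and the cells were sorted as GFP-positive from dissected dorsal cortices. Newborn neurons (NBN) and basal progenitors (BP), the dividing cells of the subventricular zone, were sorted from Tbr2::GFP animals. Neural stem cells (NSC) were sorted from Hes5::GFP animals, so cell type and reporter line cannot be told apart where NSC are compared with the other cells. There were 14 NBN libraries over 5 stages (E15.5 to PN), 23 BP libraries over 8 stages (E12.5 to PN) and 33 NSC libraries over 10 stages (E10.5 to PN), where PN is postnatal day 1. Each of the 23 groups had 2 to 4 libraries. Nothing in the labels tells whether replicates were separate animals or litters, so errors and p-values measure only how these libraries varied, and that spread may be technical. The sources used here do not give the gate that told NBN from BP.

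The values were TPM, an abundance corrected for transcript length that adds up to the same total in every library. Depth is therefore unknown. Genes above 0 numbered 16441 to 19465 per NBN library, 16098 to 18156 per BP library and 16461 to 21210 per NSC library. A list of 9 neuronal genes summed to 6536 to 10210 TPM in NBN, 4180 to 7513 in BP and 412.3 to 6621 in NSC. A list of 7 basal progenitor genes summed to 802.5 to 1483 TPM in NBN, 1731 to 3279 in BP and 192.1 to 2677 in NSC, and a list of 10 stem cell genes to 225.9 to 493.8, 551.3 to 989.3 and 1644 to 12190 TPM in the same order of cells. The NSC libraries thus also held basal progenitor and neuronal transcripts, and the BP libraries also held neuronal ones. Sums for 14 interneuron genes were 16.34 to 106.3 TPM in NBN, 21.92 to 89.66 in BP and 109.5 to 1364 in NSC, and no gene of these 4 lists was at 0 in all libraries of a cell type. Cajal-Retzius genes (9) summed to medians of 154.6 TPM in NBN, 261.6 in BP and 94.44 in NSC, subplate genes (5) to 52.93, 111.4 and 56.12, dentate gyrus genes (6) to 20.84, 46.92 and 34.56, and immediate early genes (14) to 186.6, 232.4 and 298.9. BP at E12.5 had the highest Cajal-Retzius sums (858.1 to 901.4 TPM) and subplate sums (356.1 to 372.2 TPM). BP at E17.5 had the highest dentate sums (322.1 to 342.4 TPM). In each cell type only 2 of the 6 dentate genes had a mean of 1 TPM or more. All samples were labelled female, yet 43 of 70 libraries held more than 10 TPM summed over 4 Y-linked genes. Replicate 3 of the PN NSC group was titled as NSC but carried a basal progenitor cell type label. The PN BP libraries summed to 706.6 to 739.4, 2754 to 3128 and 4180 to 4417 TPM for the stem cell, basal progenitor and neuronal lists. The other PN NSC libraries summed to 10550 to 11590, 706.8 to 786.0 and 1157 to 1197 TPM. Close to these, the library with the conflicting label summed to 11770, 838.9 and 1208 TPM. Leaving it out moved none of the 24 fitted differences of the 6 genes that use PN NSC libraries by more than 0.06 on the log2 scale, and no count of called genes below.

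In the GRCm38 annotation Tac2 lies at chr10:127724478-127731768 on the plus strand, Cck at chr9:121489824-121495694 on the minus strand, Sst at chr16:23889573-23890958 on the minus strand, Npy at chr6:49822710-49829507 on the plus strand and Nos1 at chr5:117781032-117958840 on the plus strand, all as protein-coding genes. Peptide genes are textbook targets of the cyclic AMP response element, whose letters are TGACGTCA and which was first described in the Sst promoter. RefSeq promoter windows (build GRCm38.p6, 300 bases from 250 before to 50 after the start) were found for 5 of the 6 genes and searched on both strands. Bases 60 to 31 before the start are shown for Sst and Cck because they hold the full element in Sst and its short form (CGTCA, or TGACG on the other strand) in Cck. The Sst stretch is chr16:23890875-23890904 and the Cck stretch chr9:121495725-121495754, both read 5′ to 3′ on the minus strand, with the letters of the element in capitals.
Sst: cgcctccttggcTGACGTCAgagagagagt
Cck: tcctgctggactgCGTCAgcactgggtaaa
The annotated Sst gene starts 114 bases upstream of the RefSeq start, so the Sst stretch lies inside the annotated span, whereas for Cck both starts are the same. The full element starts 48 bases before the RefSeq start of Sst, and the short form 47 bases before that of Cck. Nos1 holds the short form 130 bases before its RefSeq start, which lies 85807 bases inside the annotated span. The windows of Tac2 and Npy hold neither. Of all 32851 windows in the table, 588 (1.79%) hold the full element and 6837 (20.8%) the short form, which is contained in the full element. These matches describe letters only.

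**Figure D1:**
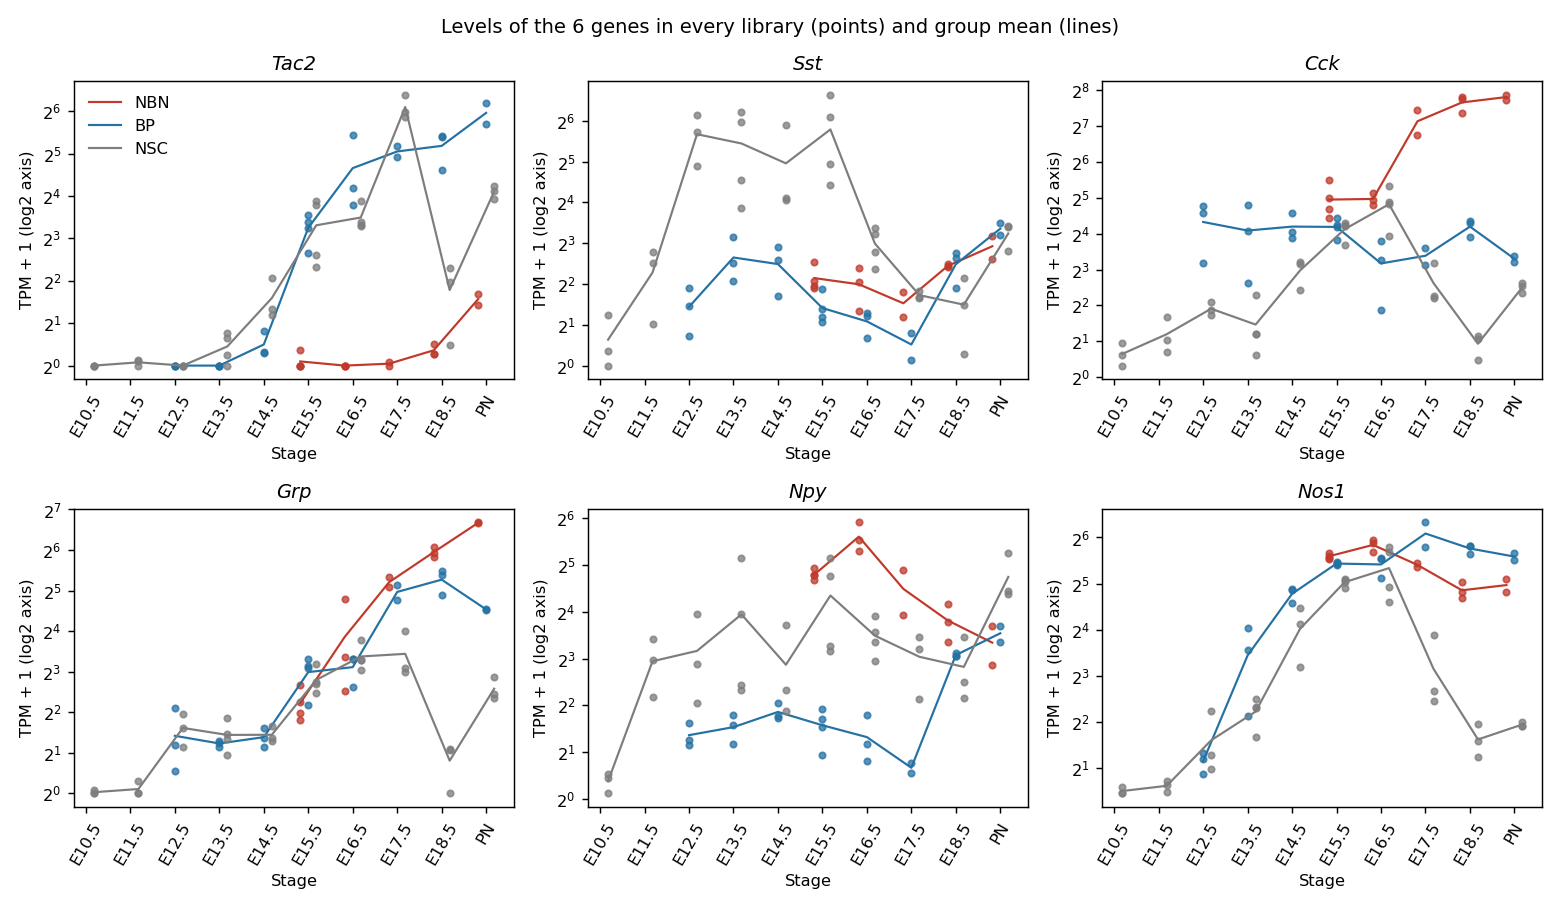
Level of each of the 6 genes as TPM + 1 on a log2 axis against stage, with 1 point per library and lines through group means. NBN are red, BP blue and NSC grey. Tac2 reached 72.1 TPM in BP and 2.24 TPM in NBN at PN, while Cck and Grp were highest in late NBN and Sst in NSC from E12.5 to E15.5.

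Tac2 was highest in late progenitors. In NBN libraries it stayed at or near 0 until PN, in BP libraries it was high from E15.5 on, and in NSC libraries it had a high point at E17.5. In NBN, Tac2 was listed at 0, 0.283, 0 and 0 TPM at E15.5, at 0 in all 3 libraries at E16.5, at 0.0641 and 0 at E17.5, at 0.215, 0.213 and 0.424 at E18.5 and at 1.69 and 2.24 TPM at PN. In BP it was listed at 0 in all libraries at E12.5 and E13.5 and stood at 0.775, 0.221 and 0.239 TPM at E14.5. At E15.5 the 4 BP libraries were at 9.54, 5.28, 10.7 and 8.53 TPM, above all of the earlier BP libraries. The later BP libraries were higher still: 42.7, 12.8 and 17.3 TPM at E16.5, 29.3 and 35.1 at E17.5, 41.8, 23.5 and 40.7 at E18.5, and 50.5 and 72.1 at PN. Every NBN library was below every BP library of its stage. In these pooled sorted cells, fewer cells that express a gene and less RNA per cell cannot be told apart.

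In NSC, Tac2 was at 0 in all 3 libraries at E10.5 and E12.5, with 0, 0.0758 and 0.0884 TPM at E11.5 between them. It stood at 0.561, 0.199, 0.712 and 0 TPM at E13.5, at 1.53, 3.22 and 1.30 at E14.5, at 3.97, 13.6, 12.9 and 5.15 at E15.5 and at 9.44, 8.95, 8.86 and 13.8 at E16.5. The E17.5 NSC libraries held 83.1, 62.6 and 57.1 TPM, more than any other NSC library. At E18.5 the NSC values were 0.400, 3.97 and 2.95 TPM, and at PN they were 16.48, 14.3 and 17.9 TPM. The E17.5 libraries thus overlapped neither neighbouring stage, and they were above both BP libraries of E17.5, whereas BP were above NSC at E18.5 and PN without overlap. The basal progenitor list summed to 2677, 2402 and 2205 TPM in those E17.5 NSC libraries. It summed to 1463 to 2483 TPM at E16.5 and to 1127 to 1220 TPM at E18.5. At PN it summed to less, 706.8 to 838.9 TPM, while Tac2 was higher than at E18.5. At E13.5 it summed to 1585 to 2459 TPM, with Tac2 at most 0.712 TPM. The part of this list in the Tac2 level was not tested.

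Ordered by group mean, Tac2 was highest in NSC at E17.5 (67.6 ± 13.7 TPM, SD, n = 3) and in BP at PN (61.3 ± 15.3 TPM, SD, n = 2), and these overlapped. BP at E18.5, E17.5 and E16.5 and NSC at PN followed, each overlapping the next. Of 22 neighbouring pairs in the order, 4 did not overlap: BP at PN and at E18.5, NSC at PN and at E16.5, BP at E15.5 and NSC at E18.5, and NBN at PN and BP at E14.5. Fitted over shared stages on the scale of log2(TPM + 1), which understates differences of low levels, Tac2 differed by -4.35 ± 0.16 (SE) for NBN minus BP, by -3.27 ± 0.15 for NBN minus NSC and by 0.49 ± 0.11 for BP minus NSC. Between the mid stages (E13.5 to E15.5) and the late ones (E17.5, E18.5 and PN), the late minus mid difference was 4.15 ± 0.20 in BP and 2.22 ± 0.18 in NSC. Without E17.5 in the late window, an alternative chosen after seeing the data, the NSC difference was 1.14.

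Cck was highest in late newborn neurons. The NBN libraries held 20.5, 24.7, 43.8 and 30.7 TPM at E15.5 and 34.4, 26.8 and 29.6 TPM at E16.5. From E17.5 on the level was several times higher, at 172 and 107 TPM at E17.5, at 224, 215 and 164.5 TPM at E18.5 and at 234 and 212 TPM at PN. The 7 NBN libraries of E17.5 to PN lay above all other libraries of the series, and the E17.5 and E16.5 NBN groups did not overlap. No such step was seen in BP, where Cck stood at 26.3, 22.7 and 8.16 TPM at E12.5, at 26.8, 16.0 and 5.12 at E13.5, at 15.4, 13.6 and 23.04 at E14.5 and at 13.3, 17.2, 20.5 and 17.9 at E15.5. Later BP libraries held 2.63, 8.58 and 12.8 TPM at E16.5, 7.81 and 11.1 at E17.5, 18.8, 19.4 and 13.9 at E18.5 and 8.32 and 9.37 at PN. Cck was thus present in BP libraries from the first stage sampled, with overlapping neighbours over time from E12.5 to E15.5. The BP libraries of E12.5 also had neuronal sums of 7125 to 7513 TPM, against 6536 to 6637 TPM in NBN at PN. The part of neuronal transcripts in the Cck level of BP was not tested.

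NSC started low for Cck and had its highest levels at E16.5. The libraries of E10.5 to E13.5 ranged from 0.249 to 3.90 TPM. They were followed by 4.43, 7.85 and 8.31 TPM at E14.5, 18.51, 17.4, 11.8 and 17.9 at E15.5, and 28.3, 27.4, 39.2 and 14.3 at E16.5. At E17.5 NSC held 8.05, 3.59 and 3.84 TPM, at E18.5 0.397, 1.22 and 1.10, and at PN 4.80, 4.06 and 5.22. The neuronal gene list summed in NSC to 5380 to 6621 TPM at E15.5, to 3754 to 6109 at E16.5, to 1828 to 2869 at E17.5 and to 1400 to 1629 at E18.5. It was thus highest at the 2 stages with the most Cck, and its part in the Cck level was not tested.

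In order of group means Cck was led by NBN at PN (223 ± 15.49 TPM, SD, n = 2), at E18.5 (201 ± 32.1, n = 3) and at E17.5 (140 ± 46.0, n = 2), each overlapping the next, while PN and E17.5 did not overlap. The next group was NBN at E16.5 (30.3 ± 3.86, n = 3), which did not overlap E17.5, and from there only NSC at PN and at E12.5 did not overlap among the neighbours. The fitted differences were 2.88 ± 0.19 for NBN minus BP, 3.52 ± 0.18 for NBN minus NSC and 1.15 ± 0.14 for BP minus NSC. Late minus early (E15.5 and E16.5), Cck differed by 2.59 ± 0.27 in NBN. Late minus mid, it differed by -0.44 ± 0.25 in BP and -0.80 ± 0.22 in NSC.

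Grp was higher at later stages in both kinds of Tbr2::GFP cell. NBN held 2.52, 5.41, 3.76 and 2.98 TPM at E15.5, 26.5, 4.76 and 9.25 at E16.5, 39.2 and 32.8 at E17.5, 59.7, 66.4 and 56.0 at E18.5 and 99.95 and 101.9 at PN. From E17.5 to PN these NBN stages did not overlap each other, and at E16.5 replicate 1 stood far above the other libraries. In BP the libraries of E12.5 to E14.5 ranged from 0.455 to 3.27 TPM. BP then held 3.54, 7.81, 7.49 and 8.93 TPM at E15.5, 8.90, 5.14 and 8.90 at E16.5, 26.2 and 34.3 at E17.5, 43.7, 28.5 and 40.5 at E18.5, and 21.9 and 22.5 at PN. The step between E16.5 and E17.5 was without overlap in BP as it was in NBN.

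In NSC Grp did not reach such levels. It was at 0, 0.0562 and 0 TPM at E10.5 and 0.227, 0 and 0 at E11.5, and at 0.934 to 2.89 TPM in the libraries of E12.5 to E14.5. At E15.5 NSC held 5.49, 8.11, 5.68 and 4.51 TPM, at E16.5 8.83, 8.76, 12.7 and 7.21, and at E17.5 15.0, 7.58 and 6.93. The E18.5 libraries were at 0, 1.09 and 1.15 TPM and the PN libraries at 4.45, 4.12 and 6.36 TPM, so that the E18.5 group stood below both neighbouring stages, as for Tac2.

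NBN at PN (100.9 ± 1.34 TPM, SD, n = 2) and at E18.5 (60.7 ± 5.27, n = 3) headed the order for Grp, with no overlap between them or with the next group, BP at E18.5 (37.6 ± 8.04, n = 3). BP at E18.5 and E17.5 overlapped NBN at E17.5 in between. The fitted difference of Grp was 0.56 ± 0.16 for NBN minus BP, 2.16 ± 0.15 for NBN minus NSC and 0.93 ± 0.12 for BP minus NSC. It was 3.07 ± 0.23 for NBN late minus early, 3.07 ± 0.21 for BP late minus mid and 0.35 ± 0.19 for NSC late minus mid. That small NSC difference was -0.23 without E17.5 in the late window.

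**Figure D2:**
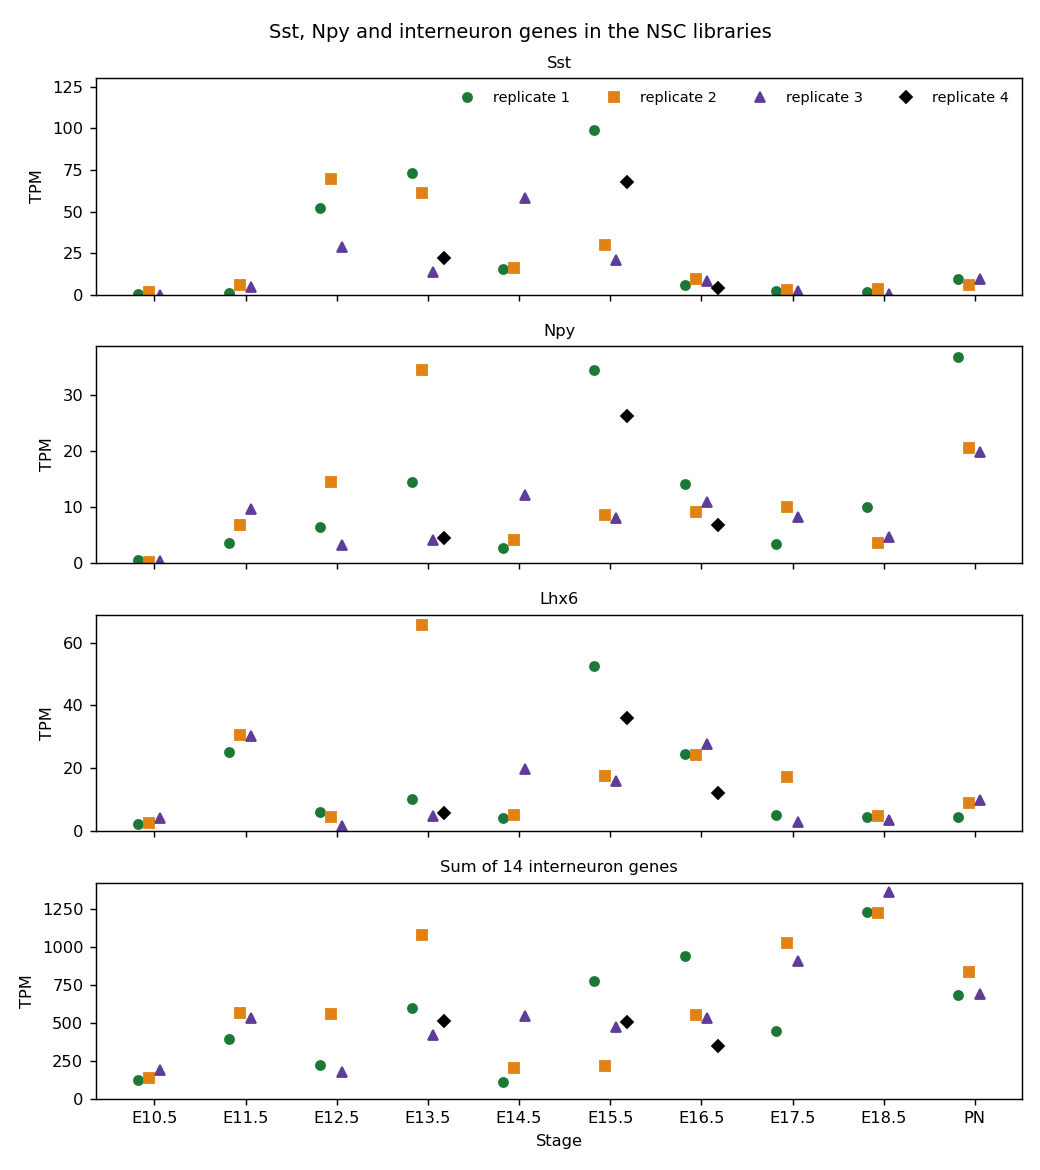
Sst, Npy, the interneuron transcription factor gene Lhx6 and the sum of 14 interneuron genes in each NSC library, in TPM on linear axes that start at 0, against stage, with 1 symbol per replicate. Replicates of 1 stage lie far apart at E13.5 to E15.5. At E14.5, E15.5 and E17.5 the libraries highest in Sst are also highest in Npy and Lhx6, which is not so at the other stages. At E17.5 Sst ran only from 2.17 to 2.56 TPM.

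Sst was highest in NSC libraries of E12.5 to E15.5. NSC held 0.284, 1.38 and 0 TPM at E10.5 and 1.02, 5.85 and 4.72 at E11.5. At E12.5 it stood at 52.0, 69.3 and 28.6 TPM, at E13.5 at 72.9, 61.4, 13.52 and 22.2, at E14.5 at 15.7, 16.3 and 58.2 and at E15.5 at 98.9, 29.9, 20.7 and 67.6 TPM. All libraries of E12.5 to E15.5 were above all other libraries of the series, but within a stage the highest was up to several times the lowest. Later NSC libraries held 5.92, 9.34, 8.39 and 4.19 TPM at E16.5, 2.17, 2.56 and 2.19 at E17.5, 1.81, 3.42 and 0.209 at E18.5 and 9.73, 6.04 and 9.55 at PN. In NBN Sst ranged from 1.29 to 4.86 TPM from E15.5 to E18.5 and stood at 8.09 and 5.09 TPM at PN. In BP it ranged from 0.109 to 7.91 TPM from E12.5 to E18.5 and stood at 8.20 and 10.3 TPM at PN.

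BP libraries were below NSC libraries in Sst at each stage from E12.5 to E17.5 without overlap, and overlapped them at E18.5 and PN. Ordered by mean, NSC at E15.5 (54.3 ± 36.0 TPM, SD, n = 4), E12.5 (49.9 ± 20.4, n = 3), E13.5 (42.5 ± 29.1, n = 4) and E14.5 (30.1 ± 24.4, n = 3) came first and overlapped one another. The only neighbours in the order that did not overlap were NSC at E14.5 and BP at PN (9.24 ± 1.48, n = 2). The fitted difference was 0.44 ± 0.24 for NBN minus BP, -0.77 ± 0.23 for NBN minus NSC and -1.88 ± 0.18 for BP minus NSC. Within NSC it was 3.8 ± 0.32 for mid minus early (E10.5 and E11.5) and -3.04 ± 0.28 for late minus mid.

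Npy was highest in early newborn neurons, was present in NSC from E11.5 on and was low in BP until E18.5. NBN libraries held 29.5, 24.5, 26.5 and 26.5 TPM at E15.5, 38.4, 45.4 and 59.2 at E16.5, 14.2 and 28.6 at E17.5, 9.29, 12.8 and 17.1 at E18.5 and 11.9 and 6.28 at PN. The E16.5 libraries were above all other NBN libraries. BP libraries were low from E12.5 to E17.5, between 0.461 and 3.16 TPM, and stood at 7.66, 7.32 and 7.27 TPM at E18.5 and at 9.23 and 12.02 TPM at PN. In NSC the E10.5 libraries were at 0.451, 0.0856 and 0.362 TPM, those of E11.5 at 3.55, 6.83 and 9.67 and those of E12.5 at 6.36, 14.4 and 3.11. The NSC libraries then held 14.49, 34.7, 4.03 and 4.36 TPM at E13.5, 2.68, 4.02 and 12.2 at E14.5, 34.5, 8.61, 7.95 and 26.3 at E15.5, and 14.1, 9.15, 10.9 and 6.76 at E16.5. After 3.39, 9.99 and 8.24 TPM at E17.5 and 10.1, 3.45 and 4.65 at E18.5, the PN NSC libraries held 37.0, 20.6 and 19.8 TPM, more than any NSC library of the 3 stages before.

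NBN at E16.5 (47.7 ± 10.6 TPM, SD, n = 3) had the highest mean Npy level and did not overlap the next group, NBN at E15.5 (26.7 ± 2.07, n = 4). From there through NSC at E18.5 each group overlapped the next, and BP of E12.5 to E17.5 made up the low end with NSC at E10.5. Every NBN library was above every BP library from E15.5 to E18.5, and the PN groups overlapped. The fitted difference was 2.36 ± 0.24 for NBN minus BP, 0.80 ± 0.22 for NBN minus NSC and -1.52 ± 0.17 for BP minus NSC. NBN late minus early was -1.37 ± 0.33, whereas BP late minus mid was 0.79 ± 0.30 and NSC late minus mid 0.04 ± 0.27. Without E17.5 in the late window the BP difference was 1.67.

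At E14.5, E15.5 and E17.5 the NSC replicates with the most Sst also had the most Npy and Lhx6. This was not so at the other stages. At E17.5 replicate 2 had the most of all 3 genes, with Npy at 9.99 TPM and Lhx6 at 17.2 TPM. Its Sst level of 2.56 TPM was close to the 2.17 and 2.19 TPM of replicates 1 and 3. At E15.5, replicates 1 and 4 had the most Sst (98.9 and 67.6 TPM) and the most Npy (34.5 and 26.3 TPM), and Lhx6 stood at 52.6 and 35.9 TPM there, against 17.4 and 15.8 TPM in replicates 2 and 3. At E14.5, replicate 3 had the most of all 3 genes, with Lhx6 at 19.7 TPM, against 3.97 and 5.14 TPM in replicates 1 and 2. At E13.5 replicate 2 had the most Npy and 65.8 TPM of Lhx6, against 10.3, 4.86 and 5.59 TPM in replicates 1, 3 and 4, but replicate 1 had the most Sst. At E12.5 replicate 2 had the most Sst and Npy, whereas Lhx6 was highest in replicate 1, at 5.86, 4.52 and 1.47 TPM in replicates 1 to 3. At E11.5 Lhx6 was at 25.2, 30.6 and 30.2 TPM, with Sst at most 5.85 TPM. The sum of the 14 interneuron genes was 601.1, 1082, 420.4 and 513.8 TPM in the E13.5 replicates in order, 109.5, 203.3 and 545.2 at E14.5 and 778.1, 218.1, 472.9 and 505.7 at E15.5. That sum was highest at E18.5, at 1223 to 1364 TPM, where Sst was at most 3.42 TPM. The part of interneuron transcripts in the Sst and Npy levels, and in their lower levels in BP, was not tested.

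Nos1 was high in all 3 cell types at E15.5 and E16.5 and, from E17.5 on, in NBN and BP but not in NSC. NBN held 47.3, 46.4, 45.5 and 49.6 TPM at E15.5, 60.7, 50.1 and 57.9 at E16.5, 40.3 and 42.5 at E17.5, 27.4, 24.7 and 31.9 at E18.5 and 27.3 and 33.3 at PN. The NBN libraries of E18.5 and PN were thus below those of all earlier stages. BP held 0.851, 1.30 and 1.53 TPM at E12.5, 3.36, 15.51 and 10.8 at E13.5 and 28.1, 22.8 and 28.6 at E14.5, each stage above the one before without overlap. The 4 BP libraries of E15.5 were close together at 43.1, 41.5, 42.0 and 42.5 TPM. Nos1 stood in BP at 33.7, 45.8 and 45.6 TPM at E16.5, and all libraries of E17.5 to PN were above those of E15.5, with 79.4 and 54.4 at E17.5, 48.9, 55.6 and 55.1 at E18.5 and 44.7 and 49.4 at PN.

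In NSC the Nos1 level was high for a few stages only. The 6 libraries of E10.5 and E11.5 were between 0.376 and 0.656 TPM. NSC then held 3.73, 1.45 and 0.968 TPM at E12.5, 2.18, 3.92, 4.63 and 4.03 at E13.5, 8.14, 16.6 and 21.1 at E14.5, 33.3, 28.8, 32.8 and 31.9 at E15.5 and 29.4, 54.4, 50.6 and 23.4 at E16.5. At E17.5 NSC held 13.9, 5.34 and 4.51 TPM, at E18.5 2.00, 2.88 and 1.37 and at PN 2.81, 2.77 and 3.02. All NSC libraries of E17.5 and later were below all those of E15.5 and E16.5. Within E16.5 the neuronal list summed to 5083, 6109, 5957 and 3754 TPM in replicates 1 to 4. The libraries with the most Nos1 thus also had the most of these transcripts. At E17.5 replicate 1 was highest in both (2869 TPM, against 1891 and 1828). The same replicate was also highest in both at E10.5, E14.5, E15.5 and PN, but not at E11.5, E12.5, E13.5 and E18.5. At E13.5 replicate 3 had the most Nos1 but a neuronal sum of 2915 TPM, against 3353 TPM in replicate 2. The part of the neuronal list in the Nos1 level was not tested.

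Ordered by mean, BP at E17.5 (66.9 ± 17.6 TPM, SD, n = 2), NBN at E16.5 (56.3 ± 5.50, n = 3), BP at E18.5 (53.2 ± 3.74, n = 3), NBN at E15.5 (47.2 ± 1.77, n = 4) and BP at PN (47.0 ± 3.29, n = 2) led for Nos1, each overlapping the next. Only 3 of 22 neighbouring pairs did not overlap, BP at PN and at E15.5, BP at E14.5 and NSC at E14.5, and BP at E12.5 and NSC at E11.5. NBN libraries were above BP libraries in Nos1 at E15.5 and E16.5 and below them at E17.5, E18.5 and PN, each without overlap. The fitted NBN minus BP value averages over both signs. The fitted difference of Nos1 was -0.32 ± 0.15 for NBN minus BP, 1.96 ± 0.14 for NBN minus NSC and 1.62 ± 0.11 for BP minus NSC. It was -0.64 ± 0.20 for NBN late minus early, 1.32 ± 0.19 for BP late minus mid, 3.16 ± 0.19 for NSC mid minus early and -1.53 ± 0.17 for NSC late minus mid.

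**Figure D3:**
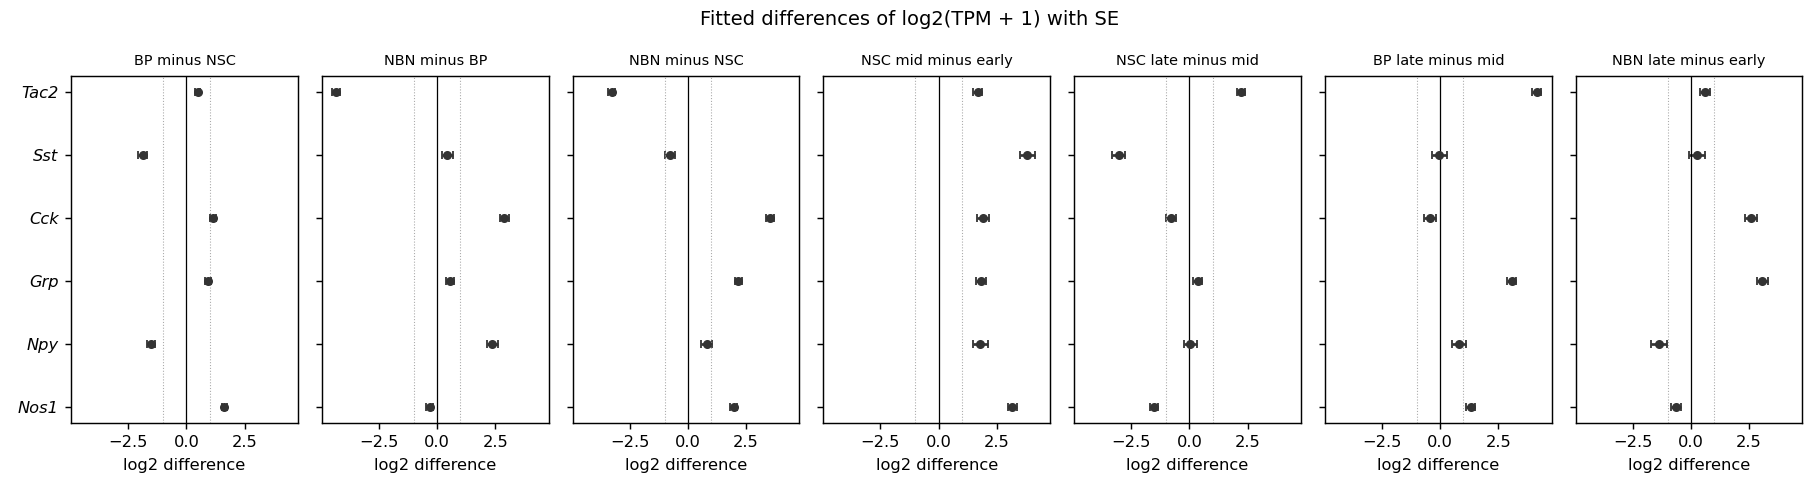
Fitted difference of log2(TPM + 1) for each of the 6 genes in 7 comparisons, with bars of 1 SE and dotted lines at -1 and 1. Tac2 and Cck lie furthest apart for NBN minus BP, at -4.35 and 2.88.

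At the last stage, PN, 5 of 6 genes had libraries that did not overlap between NBN and BP, with 2 higher and 3 lower in NBN, beside 66.5% of all tested genes. Between NBN and NSC it was again 5 of 6, 3 higher and 2 lower in NBN, beside 77% of all tested genes. Between BP and NSC it was 5 of 6, with 4 higher and 1 lower in BP, beside 72.8% of all tested genes. The counts are of genes picked for their pattern and nothing is read from them. Groups of 2 or 3 libraries separate easily, as the shares over all genes show.

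The changes over time were also compared between the cell types. For Nos1 the late minus mid difference had opposite signs, at 1.32 in BP and -1.53 in NSC. The late minus mid difference in BP less that in NSC was 1.92 ± 0.27 for Tac2, 3.01 ± 0.42 for Sst, 0.36 ± 0.33 for Cck, 2.72 ± 0.28 for Grp, 0.75 ± 0.41 for Npy and 2.85 ± 0.25 for Nos1. Without E17.5 in the late window it was 3.17 for Tac2 and 3.28 for Grp. The late difference from E15.5 and E16.5 in NBN less that in BP was -0.92 ± 0.30 for Tac2, -0.62 ± 0.48 for Sst, 2.54 ± 0.38 for Cck, 1.16 ± 0.32 for Grp, -2.39 ± 0.46 for Npy and -1.02 ± 0.29 for Nos1. Without E17.5 the Npy value was -3.57. For Tac2 the sign depended on the scale, being 0.35 with a pseudocount of 0.1, since NBN libraries were at or near 0.

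For each of the 6 genes, the 3 most similar patterns were found among 9289 genes whose mean reached 20 TPM in some group, by Pearson's r of log2(mean TPM + 1) over the 23 groups. The groups share libraries and cell types, so r is a description. The most similar to Nos1 were Kcnj11 (r = 0.979), Igsf3 (0.952) and Kcnq3 (0.952). Grp was followed by Zfp385b (0.965), Flot1 (0.913) and Sergef (0.913), and Tac2 by Dgkz (0.948), Loxl1 (0.946) and Wnt5a (0.928). Of these, Loxl1 and Wnt5a had their highest mean, 75.6 and 31.5 TPM, in NSC at E17.5, the group where Tac2 was also highest. Cck was followed by Rac3 (0.942), Fam131c (0.935) and Serp2 (0.934), all highest in NBN at E18.5. For Npy r was lower, with Gucy1a3 (0.826), Gucy1b3 (0.801) and Rnd1 (0.772). For Sst it was lowest, with Arpc5l (0.746), Hint2 (0.72) and Cox5b (0.719).

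The pathway around the 6 genes was tested with 82 listed genes, none of them among the 6, of which 54 passed the filter on low values. Earlier results of these data were known when the genes were listed, so the shares of called genes are a description. A gene was called when its limma p, adjusted over all tested genes by Benjamini-Hochberg, was below 0.05 and it differed by 1 or more on the log2 scale. Called genes made up 9 of the 54 (16.7%; 7 higher, 2 lower) for NBN minus BP, beside 9.42% of all 15508 tested genes, and 16 (29.6%; 11 higher, 5 lower) for NBN minus NSC, beside 19.1%. For BP minus NSC they made up 11 (20.4%; 6 higher, 5 lower), beside 8.09%. Within NSC, 20 (37%; 18 higher, 2 lower) were called for mid minus early, beside 19%, and 10 of 54 (5 higher, 5 lower) for late minus mid, beside 11.8%. Within BP 6 (11.1%; 2 higher, 4 lower) were called for late minus mid, beside 4.71%, and within NBN 7 (13%; all higher) for late minus early, beside 2.33%. The change over time differed between BP and NSC in 9 genes (16.7%), beside 9.7%, and between NBN and BP in 3 (5.56%), beside 1.36%. The share of higher calls moved by more than 10 points with quantile normalization for BP minus NSC (7 of 9), NBN minus NSC (16 of 20), NSC late minus mid (3 of 11), BP late minus mid (1 of 5), NBN late minus early (4 of 5), and for the difference in change between NBN and BP (2 of 2). For BP late minus mid, 6 of 10 calls were higher with a pseudocount of 0.1 and 1 of 3 with 5. For BP minus NSC these were 8 of 17 and 4 of 5. Without E17.5 in the late window, 1 of 5 calls was higher for the difference in change between NBN and BP. Of the 91 calls over the 9 comparisons, 40 were lost with a pseudocount of 5 and 15 with quantile normalization.

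**Figure D4:**
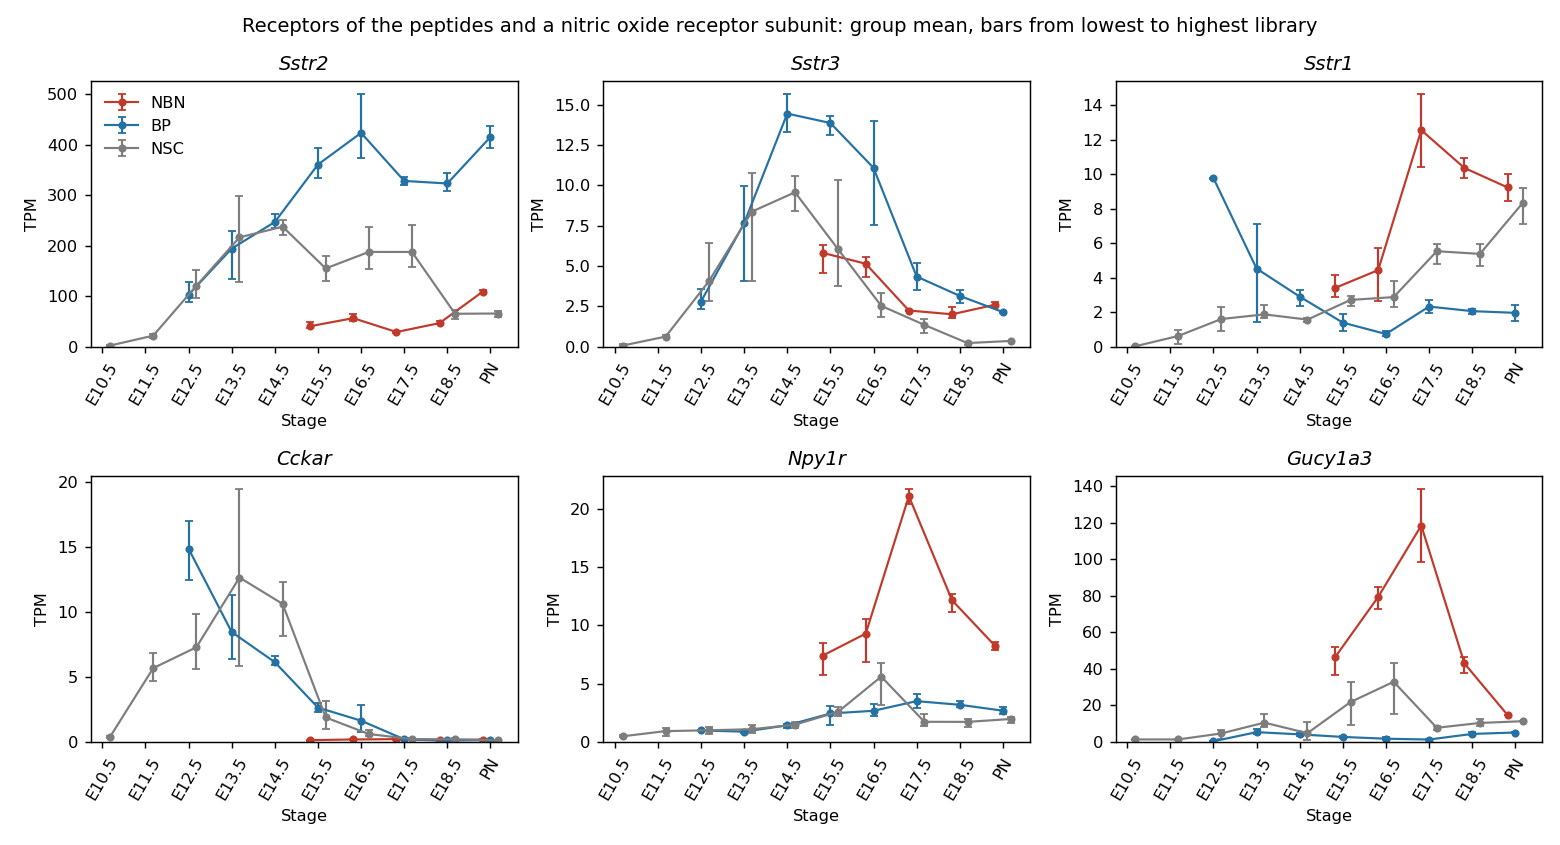
Group mean in TPM on a linear axis that starts at 0, against stage, for 5 peptide receptors and the guanylate cyclase subunit gene Gucy1a3, with bars from the lowest to the highest library and NBN in red, BP in blue and NSC in grey. Sstr2 was highest in BP, at 424 TPM at E16.5, and Npy1r and Gucy1a3 were highest in NBN at E17.5.

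Sstr2, a somatostatin receptor, was the listed peptide receptor gene with the highest group mean in TPM. Of 18 listed receptor genes 7 were tested, and the other 11, Tacr2, Sstr4, Sstr5, Cckbr, Grpr, Nmbr, Brs3, Npy2r, Npy4r, Npy5r and Npy6r, had a mean below 1 TPM in every group. For Grpr, which encodes the receptor of gastrin-releasing peptide, the highest group mean was 0.746 ± 0.258 TPM (SD, n = 3), in NSC at PN. Sstr2 stood at 40.5 ± 5.56 TPM in NBN (SD, n = 4), 361 ± 24.6 in BP (n = 4) and 155.05 ± 22.6 in NSC (n = 4) at E15.5, the stage with the most Sst in NSC. It reached 424 ± 68.1 TPM (n = 3) in BP at E16.5 and 416 ± 31.8 TPM (n = 2) in BP at PN. In NSC it was at 2.19 ± 0.482 TPM (n = 3) at E10.5, at 238 ± 15.1 (n = 3) at E14.5 and at 65.7 ± 5.41 (n = 3) at PN.

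Of the 7 tested receptors, Sstr1, Sstr2 and Npy1r were called for NBN minus BP. Sstr2 was lower in NBN (-2.83 ± 0.09, adjusted p = 3.08e-32), and Sstr1 (1.64 ± 0.11, adjusted p = 3.57e-19) and Npy1r (1.61 ± 0.09, adjusted p = 4.04e-23) were higher. For NBN minus NSC, Npy1r was higher (1.77 ± 0.08, adjusted p = 1.46e-26) and Sstr2 lower (-1.2 ± 0.09, adjusted p = 2.89e-18). None of the 7 was called for BP minus NSC by limma, where 5 had an unadjusted p below 0.05 with a difference under 1, among them Sstr2 (0.98 ± 0.07) and Sstr3 (0.89 ± 0.09). Npy1r, the main cortical receptor of neuropeptide Y, peaked in NBN at E17.5, at 21.1 ± 0.907 TPM (SD, n = 2), against 3.49 ± 0.836 TPM in BP (n = 2) and 1.72 ± 0.565 TPM in NSC (n = 3). Npy itself was highest in NBN a stage earlier.

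Over time in NSC, Sstr2 (4.55 ± 0.12), Sstr3 (2.70 ± 0.15), Cckar (1.28 ± 0.14) and Sstr1 (1.25 ± 0.14) rose between the early and mid stages. Between mid and late stages Cckar fell by 2.66 on the log2 scale, Sstr3 by 2.45 and Sstr2 by 1.08, while Sstr1 rose further (1.28 ± 0.13). With mid stages widened to E12.5 through E16.5 the earlier Cckar call (0.87) and the later Sstr2 call (-0.92) were lost, and with quantile normalization the later Sstr1 call (0.83). In BP, Cckar fell (-2.44 ± 0.14, adjusted p = 2.82e-21), as did Sstr3 (-1.59 ± 0.15, adjusted p = 3.92e-13) and Tacr3 (-1.05 ± 0.10, adjusted p = 1.11e-12), the receptor of neurokinin B. Tacr3 was highest in BP at E13.5, at 4.07 ± 0.763 TPM (SD, n = 3), a stage at which all BP libraries had Tac2 at 0, and its call was lost with mid stages widened to E12.5 through E16.5 (-0.75) and without replicate 1 of E14.5 BP (-0.99). Cckar, a cholecystokinin receptor, stood at 14.9 ± 2.27 TPM in BP at E12.5 (n = 3) and 0.127 ± 0.00422 TPM in BP at PN (n = 2). In NBN only Sstr1 was called from early to late stages, as higher (1.27 ± 0.15, adjusted p = 1.67e-09 by limma). Below the threshold of 1, Npy1r (0.60 ± 0.12) and Tacr3 (0.30 ± 0.11) were higher and Sstr3 was lower (-0.98 ± 0.16). Tacr1 was called in none of these comparisons. With a pseudocount of 5 the calls named for Sstr1, the Cckar rise in NSC and the Tacr3 call were lost. The median of the 7 was -0.10 for NBN minus BP and 1.25 for NSC mid minus early, beside -0.069 and 0.144 over all tested genes.

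Genes that process, store and release peptides were measured in full, with 18 of 18 tested. In NSC 8 rose, 1 fell and 9 were not called between the early and mid stages, with a median of 0.94 beside 0.144 over all tested genes. Pcsk1n, an inhibitor of prohormone convertase, rose most (4.00 ± 0.11, adjusted p = 2.18e-36) and stood at 0.233 ± 0.0893 TPM in NSC at E10.5 (SD, n = 3) and 47.3 ± 8.43 TPM at E15.5 (n = 4). Chga, a core protein of dense-core vesicles, rose by 2.64 ± 0.09. Ptprn2, a vesicle membrane protein, fell by 1.02, a call lost without any 1 of 7 NSC libraries (range -0.93 to -1.0), with a replicate block (-0.99) and with the widened mid stages (-0.98).

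For NBN minus BP, 3 processing genes were higher and 1 lower. Pam, which amidates the C terminus of peptides such as cholecystokinin, neuropeptide Y and neurokinin B, was lower in NBN (-1.94 ± 0.08, adjusted p = 8.68e-28), at 119 ± 12.2 TPM in NBN and 361 ± 33.8 TPM in BP at PN (SD, n = 2 each). Ptprn2 (1.52 ± 0.13) and Qpct (1.2 ± 0.08), a glutaminyl cyclase, were higher in NBN. For NBN minus NSC 6 were higher, led by Ptprn2 (1.42 ± 0.12) and Pcsk1n (1.38 ± 0.08), and Pam (-1.15 ± 0.08) and Cadps2 (-1.02 ± 0.07) were lower. The Cadps2 call was lost without any 1 of 4 libraries (range -0.98 to -1.0) and with both other scalings.

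For BP minus NSC, 4 of the 18 were higher, led by Scg2 (1.27 ± 0.09), a secretogranin, and Cadps (1.25 ± 0.06), which primes dense-core vesicles, and Qpct (-1.15 ± 0.06) and Cadps2 (-1.12 ± 0.05) were lower. Both of these lower calls were lost with quantile normalization (-1.0 for Qpct and -0.89 for Cadps2). Late minus mid, Pam rose in BP (1.24 ± 0.10, adjusted p = 5.33e-15). In NSC Qpct (2.59 ± 0.10) and Cpe (1.44 ± 0.05), a carboxypeptidase of peptide processing, rose and Chga fell by 1.14. Cpe stood at 306 ± 17.8 TPM in NSC at E15.5 (n = 4) and at 1727 ± 46.7 TPM in NSC at PN (n = 3), and Qpct at 3.49 ± 0.919 and 47.6 ± 5.92 TPM in the same groups. In NBN 4 were called higher and none lower by limma from early to late stages (3 were lower at an unadjusted p below 0.05). The largest were Vgf (1.14 ± 0.12, adjusted p = 1.11e-11) and Qpct (1.07 ± 0.11, adjusted p = 6.75e-11). Of these the Qpct call was lost with quantile normalization (0.96). With a pseudocount of 5 the calls named for Cadps2, the Ptprn2 fall in NSC, the Scg2 call, the Vgf call and those of Qpct other than its rise in NSC were lost.

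The nitric oxide list held other synthases, regulators of synthase and the guanylate cyclase and kinase that act downstream, and 12 of its 13 genes were tested. Gucy1a3 (3.74 ± 0.17, adjusted p = 5.42e-26) and Gucy1b3 (2.48 ± 0.10, adjusted p = 1.68e-27), which encode the 2 subunits of a guanylate cyclase, were higher in NBN than in BP, and in NBN than in NSC (1.72 ± 0.16 and 1.32 ± 0.10). Gucy1a3 stood at 119 ± 28.4 TPM in NBN (SD, n = 2), 1.27 ± 0.153 TPM in BP (n = 2) and 7.71 ± 1.32 TPM in NSC (n = 3) at E17.5. In BP, where Nos1 was highest at that stage, Gucy1a3 stayed between group means of 0.322 and 5.31 TPM and was lower than in NSC (-1.59 ± 0.13, adjusted p = 1.29e-16). Both subunit genes rose in NSC between early and mid stages (2.13 ± 0.22 and 1.88 ± 0.14).

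Ddah1, an enzyme that degrades an inhibitor of nitric oxide synthase, was lower in NBN (-3.71 ± 0.10, adjusted p = 1.21e-37) and in BP (-3.28 ± 0.08, adjusted p = 1.99e-39) than in NSC. At PN it stood at 10.2 ± 2.52 TPM in NBN (n = 2), 12.8 ± 2.55 in BP (n = 2) and 261 ± 7.07 in NSC (n = 3). Ddah1 (1.61 ± 0.12) and the kinase gene Prkg1 (1.17 ± 0.09) rose in NSC from mid to late stages, the period in which Nos1 was lower there. The Prkg1 call was lost with quantile normalization (0.73) and with a pseudocount of 5 (0.45), and the call of Gucy1a3 for BP minus NSC with a pseudocount of 5 (-0.99). No gene of the list was called by limma for BP late minus mid or NBN late minus early, where 7 and 6 genes had an unadjusted p below 0.05. The list's median was 0.21 for NBN minus BP and 0.51 for NSC mid minus early, beside -0.069 and 0.144 over all tested genes.

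Other neuropeptide precursors were mostly low, and 17 of 33 listed were tested. None was called for NBN minus BP by limma, where 8 had an unadjusted p below 0.05. Nts (neurotensin) and Adcyap1 (the precursor of PACAP) were higher in both Tbr2::GFP populations than in NSC: by 1.92 ± 0.26 and 1.77 ± 0.10 in NBN, and by 1.91 ± 0.20 and 1.45 ± 0.07 in BP. Pmch was lower in NBN than in NSC (-1.53 ± 0.09) and Apln lower in BP than in NSC (-1.13 ± 0.05). Adcyap1 was highest in BP at E12.5, at 29.4 ± 1.80 TPM (SD, n = 3), and stood at 2.04 ± 0.446 TPM in BP at PN (n = 2). It fell from mid to late stages in BP (-1.52 ± 0.13, adjusted p = 1.15e-14) and in NSC (-1.70 ± 0.12, adjusted p = 8.88e-19), a course unlike those of Tac2 and Grp in BP.

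Nts rose in NBN from early to late stages (2.74 ± 0.38, adjusted p = 5.46e-08), with 1.52 ± 1.05 TPM at E15.5 (n = 4), 30.2 ± 2.55 at E17.5 (n = 2) and 8.70 ± 2.73 at PN (n = 2). Pnoc (prepronociceptin) rose in NBN (1.19 ± 0.19, adjusted p = 1.9e-06) and in BP (1.11 ± 0.18, adjusted p = 5.7e-07) at low levels, with no group mean above 3.69 TPM. The BP call was lost with quantile normalization and with mid stages widened to E12.5 through E16.5 (0.92 each). In NSC, Adcyap1 (1.12 ± 0.13) and Penk (1.04 ± 0.15) rose and Calca fell by 1.18 between early and mid stages, and the Penk call was lost without any 1 of 3 libraries (range 0.91 to 0.99), with both other scalings and with the widened mid stages (0.78). With quantile normalization the Adcyap1 rise in NSC (0.94) and the Apln call (-0.95) were also lost. With a pseudocount of 5 the calls named for Adcyap1, Pmch, Apln, Pnoc, Penk and Calca were lost, and those named for Nts were not.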

How the data were processed

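Gene expression was measured by RNA sequencing of sorted cells in 70 libraries. The authors deposited TPM per gene. The submitters' processing notes name kallisto 0.43.0 and the mouse builds GRCm38.p2 and mm10. Since TPM carries no depth, counting intervals were not computed, and a 0 says only how a gene is listed.

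Columns were matched to samples by their names. Of 23078 genes, 15508 had a group mean of 1 TPM or more in some group and were tested. A mean for each of the 23 cell type and stage groups was fitted to log2(TPM + 1) with limma 3.58.1 in R 4.3.3, over all 70 libraries (47 residual degrees of freedom), with a variance trend. Stages weighed equally in the 9 comparisons. Calls needed a Benjamini-Hochberg adjusted p under 0.05 over all tested genes and a log2 difference of 1 or more in size. The fit was tested on simulated data.

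The 6 genes, the pathway lists (receptors, processing, nitric oxide, other peptides) and the marker lists were chosen with earlier results of these data known. Named genes were the 6, the 3 most similar patterns of each (predicted, clone, ribosomal and mitochondrial symbols left out), the 2 largest called differences per direction in each list and comparison, and all receptors. Some other list members named for context were chosen after their values were seen. Alternatives covered the pseudocount (0.1 and 5), the filter (none and 5 TPM), scaling, the variance trend, library weights, the cell types in the fit, stage windows, replicate numbers as a block and each library left out. The position and promoter of Grp are not reported here.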

Additional observations from a re-analysis of the deposited data

Results flagged for a closer look

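Of 30 groups of 4 libraries checked, 1 gene at a time, 3 held a library far from the others, where chance gives about 1 in 20. Tac2 in NSC at E16.5 was highest in replicate 4, at 13.8 TPM, against 8.86 to 9.44 TPM in the others. In NBN at E15.5 a single library had Tac2 above 0, at 0.283 TPM. With the other libraries all at 0, any value above 0 would have been flagged. Cck in NSC at E15.5 was lowest in replicate 3, at 11.8 TPM, against 17.4 to 18.51 TPM in the others.

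Several pathway genes changed differently over time in 2 cell types, by a limma interaction term with adjusted p-values over all tested genes. Late minus mid, the change in BP less that in NSC was 1.54 ± 0.16 (SE) for Sstr2 (adjusted p = 5.77e-12) and -1.48 ± 0.19 for Sstr1 (adjusted p = 3.02e-09), so the 2 somatostatin receptors differed in opposite directions. It was 1.66 ± 0.13 for Chga (adjusted p = 1.35e-16) and 1.35 ± 0.14 for Cadps (adjusted p = 4.42e-12), both of dense-core vesicles. It was -2.23 ± 0.14 for Qpct (adjusted p = 2.55e-19) and -1.90 ± 0.18 for Ddah1 (adjusted p = 2.71e-13), both of which rose in NSC. Among other peptides it was 1.57 ± 0.24 for Pnoc (adjusted p = 1.93e-07) and -1.13 ± 0.11 for Pdyn (adjusted p = 3.72e-12). The Pdyn call was lost with quantile normalization (-0.94), and with a pseudocount of 5 the calls of Pdyn (-0.39), Pnoc (0.58) and Sstr1 (-0.81) were lost.

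Against E15.5 and E16.5, the late change in NBN less that in BP was 1.40 ± 0.21 for Cckar (adjusted p = 2.23e-06). Its group means in NBN ran from 0.107 to 0.209 TPM, and in BP they were 2.64 TPM at E15.5 and 0.127 TPM at PN. The same difference in change was 2.16 ± 0.54 for Nts (adjusted p = 0.00459) and -1.02 ± 0.23 for Scg2 (adjusted p = 0.00141). The Nts call was lost without E17.5 in the late window (1.35, adjusted p = 0.162) and with a pseudocount of 0.1 (2.60, adjusted p = 0.0549), and the Scg2 call was lost without any 1 of 7 libraries, with differences of -0.94 to -0.98, and with quantile normalization (-0.93). With a pseudocount of 5 the calls of Cckar (0.46) and Scg2 (-0.72) were lost.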

How the results depend on the processing

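The counts of called pathway genes moved most with the pseudocount. With 0.1 they were 17 for NBN minus BP (9 as reported), 17 for BP minus NSC (11), 18 for NSC late minus mid (10), 10 for BP late minus mid (6), 11 for NBN late minus early (7) and 16 for the difference in change between BP and NSC (9). With 5 they were 10 for NBN minus NSC (16), 5 for BP minus NSC (11), 12 for NSC mid minus early (20), 3 for BP late minus mid (6), 1 for NBN late minus early (7), 5 for the difference in change between BP and NSC (9) and 1 for that between NBN and BP (3). Without E17.5 in the late window, chosen after seeing the data, the last count was 5. A larger pseudocount shrinks differences of low genes by construction, and 40 of 91 calls were lost with 5, against 15 with quantile normalization, 6 with mid stages widened to E12.5 through E16.5, 2 with median ratio scaling and 1 with 0.1. Of the 54 differences of the 6 genes, 24 moved with 5 and 15 with 0.1 by more than the spread between replicates, such as Tac2 for NBN minus BP, at -2.56 with 5 and -6.60 with 0.1. For all lists together, other settings kept each count within 1.5 times its reported value.

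Leaving out each library gave 9 to 10 calls for NBN minus BP, 15 to 17 for NBN minus NSC, 11 to 12 for BP minus NSC, 18 to 21 for NSC mid minus early, 10 to 11 for NSC late minus mid, 5 to 6 for BP late minus mid, 6 to 8 for NBN late minus early, 9 to 10 for the difference in change between BP and NSC and 2 to 3 for that between NBN and BP.

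Libraries with the same replicate number did not deviate together at all stages. Where 3 or 4 numbers were shared, correlations ran from -0.234 to 0.462 for NBN and BP and from -0.234 to 0.446 for BP and NSC. For NBN and NSC they ran from -0.195 to 0.059. In these, 4 of 10, 6 of 19 and 1 of 10 correlated best with their own number, in the same order. With 3 or 4 numbers to match, luck alone gives 1 match in 3 or 4. For NBN and BP at E15.5 all 4 were positive (0.044 to 0.462), and so few pairs cannot exclude a pairing. With the number as a replicate block the counts were 9, 16, 11, 20, 11, 6, 7, 9 and 3 in the order of the leave-one-out ranges.

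The median difference of all genes moved with scaling. With median ratio scaling it was -0.011 for NBN minus NSC (-0.125 as deposited), -0.043 for NSC mid minus early (0.144) and 0.021 for BP late minus mid (0.122). For NSC late minus mid it was 0.029 (0.116). With quantile normalization it was 0.04, -0.039, -0.006 and -0.067 in the same order. Depth is unknown, so how firmly levels under 1 TPM are measured cannot be stated.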

Other observations

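Replicates of late NSC groups differed, as was seen on reading their values. At E17.5 replicate 1 had the most Tac2, Cck, Grp and Nos1 of its group (83.1, 8.05, 15.0 and 13.9 TPM) and the least Npy (3.39 TPM). At E18.5 replicate 1 had the least Tac2, Cck and Grp (0.400, 0.397 and 0 TPM) and the most Npy (10.1 TPM), but Nos1 was lowest in replicate 3 (1.37 TPM, against 2.00 TPM in replicate 1). At PN replicate 1 was the middle library in Tac2, Cck, Grp and Nos1. All 3 NSC libraries of E18.5 were below all 3 of E17.5 in Tac2, Cck, Grp and Nos1, while Npy overlapped.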
